A study of Nothobranchius furzeri with 10 samples.

Results

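The genes described here were lower in every rotenone liver than in every DMSO liver of *Nothobranchius furzeri*, the turquoise killifish, whose short life makes it a model of vertebrate ageing. There were 114 of them among 26739 genes in the deposited table. They were chosen by their counts in these same libraries, so the difference between the groups is how they were found and is given as a description, with no test. Counts were divided by DESeq2 median-of-ratios size factors, which scale libraries by the middle of their gene-wise ratios, and are called normalized counts. The 100 most abundant genes were left out. A gene was kept when its mean over the 10 libraries was at least 200 normalized counts, its highest rotenone value lay below its lowest DMSO value, and its DMSO mean was at least 1.5 times its rotenone mean. A limit of 300 genes was not reached.

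The rotenone group held 5 liver samples of fish given rotenone at 15 pM, and the DMSO group 5 of fish given DMSO. All 10 came from males of strain MZM-0410p aged 27 weeks. The labels state neither how long nor by which route the fish were treated, nor that each sample was a separate fish, so the spread between samples may be partly technical. Liver is a mixture of cells, and in such bulk samples fewer cells of a type and less RNA per cell cannot be told apart.

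Rotenone binds respiratory complex I in mitochondria and blocks the passage of electrons from NADH to ubiquinone. Complex I pumps protons across the inner mitochondrial membrane, and the resulting gradient drives ATP synthesis. Hepatocytes, the main cells of the liver, use this ATP for the synthesis of plasma proteins, glucose and lipids, and a partly blocked complex I also changes the output of reactive oxygen species. DMSO is a solvent in which rotenone is commonly dissolved. The study addressed how a low dose of this inhibitor changes gene expression in an ageing vertebrate.

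The files give gene IDs with no names, and a RefSeq gene table (assembly NfurGRZ-RIMD1) held 0 of the 26739 IDs. No gene can therefore be given a name, a function or a place in the genome here, and the label liver could not be set against marker genes. Among the members 2 are given by ID, the gene with the largest ratio and the most abundant gene, and the others by their rank in the ratio of DMSO mean to rotenone mean. Library totals ran from 29162530 to 39514232 counts in rotenone and from 32775234 to 41902929 in DMSO, and size factors from 0.660 to 1.19 in rotenone and from 0.823 to 1.36 in DMSO. The 50 most abundant genes took 30.8 to 42.4% of counts in rotenone and 26.4 to 40.0% in DMSO. One control, DMSO replicate 2, was the lowest control in 63 of the members, and whether its label is right cannot be told from the files. The number of members, non-overlapping genes, gaps, near misses and edgeR calls are given with and without it.

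The rule narrowed the table in steps. Counts were found for 22405 genes, and 10090 genes passed both abundance limits. Of these, 876 had a DMSO mean of at least 1.5 times the rotenone mean. Without overlap of the groups, 199 genes were lower in rotenone, which is 1.97% of the 10090, and 395 were higher, which is 3.91%. Without DMSO replicate 2 the number lower was 778 of 10176 genes past the abundance limits. The 114 members are 1.13% of the 10090. The same rule with the direction turned round gave 191 genes, 1.89%. Without DMSO replicate 2 the rule gave 531 of the 10176 genes, and 397 with the direction turned round. Counts without a library can rise by construction, as a group of 4 is easier to separate than one of 5. With library size as the only scaling the 10 libraries gave 138 lower and 66 higher of 10127 genes. Of the 138, 58 were among the 114. That scaling moved the median log2 fold change of all tested genes to −0.20, so directions here are relative to the size factors. Among the 100 most abundant genes, 0 were lower and 5 higher without overlap.

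The size of the difference was moderate for most members. The median ratio of DMSO mean to rotenone mean was 1.86 (quartiles 1.61 and 2.31, range 1.503 to 11.0). The ratio was at least 2 for 49 members and at least 4 for 6. In the edgeR fit over 16922 genes the members' log2 fold change, rotenone over DMSO, had a median of −0.90 (−3.47 to −0.59), against 0.00 over all tested genes. Standard errors (SE) were taken as the absolute log2 fold change divided by the square root of the F statistic of the edgeR test. Their median over the members was 0.20 (0.12 to 0.63), and they do not allow for the choice of members on the same values. All 114 passed the count filter of this fit.

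edgeR called 25 genes lower in rotenone at an adjusted p under 0.05, which is 0.148% of those tested, and 50 higher (0.295%). Of the 25 lower genes, 20 were members. As the rule used the same contrast, this overlap carries no support. DESeq2 called 813 genes higher and 743 lower. The 743 are 3.35% of the 22160 with a p-value, 112 members among them. Of the 22160 genes, 5132 had no adjusted p and could not be called, so this share is not on the same base as that of edgeR. The edgeR count changed when single libraries were omitted, and the cause was not tested. With 1 library omitted, 17042 to 17173 genes were tested. Omitting rotenone replicate 1, 2, 3 or 5 gave 3, 1, 15 and 9 genes lower, and 15, 3, 26 and 8 higher. Omitting DMSO replicate 1, 2, 3 or 4 gave 1, 572, 1 and 35 genes lower, and 2, 355, 5 and 64 higher. Of the 572, which are 3.34% of the genes tested in that setting, 84 were members. With rotenone replicate 4 or DMSO replicate 5 omitted, edgeR called 0 genes lower and 0 higher. At an unadjusted p under 0.05, 1452 and 1373 genes were then lower, and 1500 and 1363 higher.

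**Figure D1:**
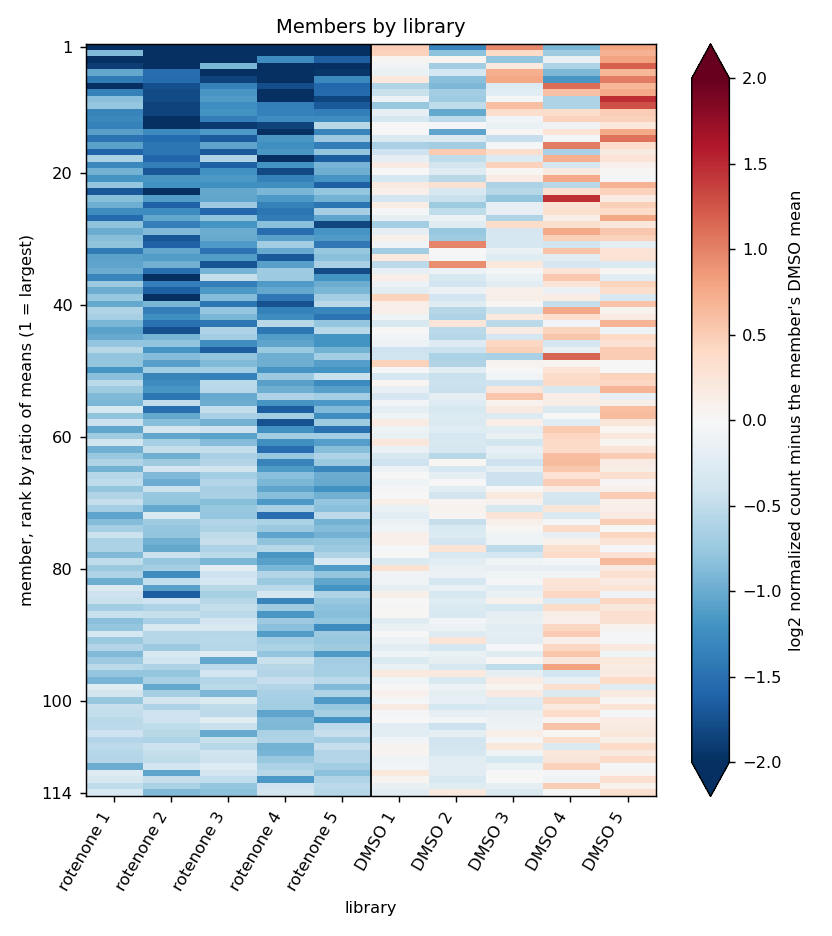
The 114 members (rows, ordered by ratio of means) in the 5 rotenone and 5 DMSO libraries (columns). Colour gives the log2 normalized count minus the member's own DMSO mean; values beyond −2 or 2 take the end colour. The rotenone columns are below 0 in every row, and DMSO replicate 2 is the lowest control in 63 rows.

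The member with the largest ratio was Nfu_g_1_009502. It had 65.1, 21.2, 23.6, 80.3 and 120 normalized counts in rotenone replicates 1 to 5, against 793, 226, 1099, 301 and 979 in DMSO replicates 1 to 5. The group means were 62.0 ± 41.3 in rotenone and 680 ± 396 in DMSO (SD, n = 5 each), and the ratio was 11.0. DMSO replicates 2 and 4 were the lowest DMSO libraries, yet the lower of them was still 1.88 times the highest rotenone value, the widest gap of any member. Its log2 fold change was −3.47 (SE 0.59, edgeR). The level per length, in RPKM recomputed with each library's own total, was 0.629 ± 0.366 in rotenone and 8.72 ± 5.45 in DMSO (SD, n = 5 each) for this gene of 2508 bp.

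The most abundant member was Nfu_g_1_006595, ranking 259 among all genes and 13 by ratio. It had 10913, 5672, 7383, 7742 and 19022 normalized counts in the rotenone libraries, against 28120, 27424, 25571, 26466 and 32483 in the DMSO libraries. The DMSO values lay close together, within 1.27-fold, while the rotenone values spanned 3.35-fold. The means were 10146 ± 5311 in rotenone and 28013 ± 2678 in DMSO (SD, n = 5 each), with a log2 fold change of −1.46 (SE 0.30, edgeR). Rotenone replicate 5 came nearest to the controls, and the lowest DMSO value was 1.34 times as high.

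The members next in abundance had wider spreads in DMSO. The second in abundance, of 3556 bp, ranked 3 by ratio. It had 3447, 2794, 5012, 8774 and 6745 normalized counts in rotenone, against 21839, 21735, 12364, 19084 and 36894 in DMSO. Its ratio was 4.18, and its level per length was 38.9 ± 13.1 RPKM in rotenone and 194 ± 76.1 RPKM in DMSO (SD, n = 5 each). Rotenone replicate 4 and DMSO replicate 3 bounded the gap, which was 1.41-fold. The third in abundance, of 3412 bp, had 5848, 6544, 5568, 7895 and 10271 normalized counts in rotenone, against 13376, 25632, 22611, 11382 and 20151 in DMSO. In this gene DMSO replicate 2 was the highest library, unlike in most members.

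The genes ranking 2, 4, 5 and 6 by ratio were scarce in rotenone. The second had 292, 93.4, 64.9, 9.09 and 121 normalized counts in rotenone, against 740, 302, 698, 328 and 873 in DMSO. Its value in rotenone replicate 4 rested on 6 reads, the lowest count of any member, with a 95% exact Poisson interval of 3.34 to 19.8 normalized counts that covers counting error only. Rotenone replicate 1 nearly reached DMSO replicate 2 in this gene, at a gap of 1.04-fold. The sixth had 109, 99.8, 80.1, 12.1 and 119 normalized counts in rotenone, against 336, 163, 499, 129 and 594 in DMSO. Here again rotenone replicate 4 was lowest, and DMSO replicates 2 and 4 were the lowest controls. The fourth averaged 124 ± 69.3 in rotenone and 512 ± 309 in DMSO, and the fifth 181 ± 110 in rotenone and 746 ± 340 in DMSO (normalized counts, SD, n = 5 each). Counts under 100 reads occurred in 31 of the 1140 values over all members, all 31 in rotenone libraries and in 16 members. The rule asks for a mean of at least 200 and every DMSO value above every rotenone value. That the low counts fell in rotenone thus follows largely by construction.

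In some members 1 or 2 DMSO libraries stood far above the other controls. The ninth by ratio had 763, 396, 623, 218 and 383 normalized counts in rotenone, against 1256, 831, 1332, 892 and 3811 in DMSO. DMSO replicate 5 was the high one. The seventh had 107, 138, 183, 136 and 156 in rotenone, against 306, 250, 384, 1013 and 735 in DMSO. DMSO replicates 4 and 5 were both high there, and the rotenone libraries lay within 1.72-fold. The gene ranking 24 had 331, 276, 290, 270 and 310 in rotenone, against 458, 438, 345, 1651 and 672 in DMSO. The gene ranking 31 had 1845, 1054, 1467, 1988 and 1200 in rotenone, against 3064, 6311, 2543, 2510 and 2812 in DMSO, so that DMSO replicate 2 alone was high.

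**Figure D2:**
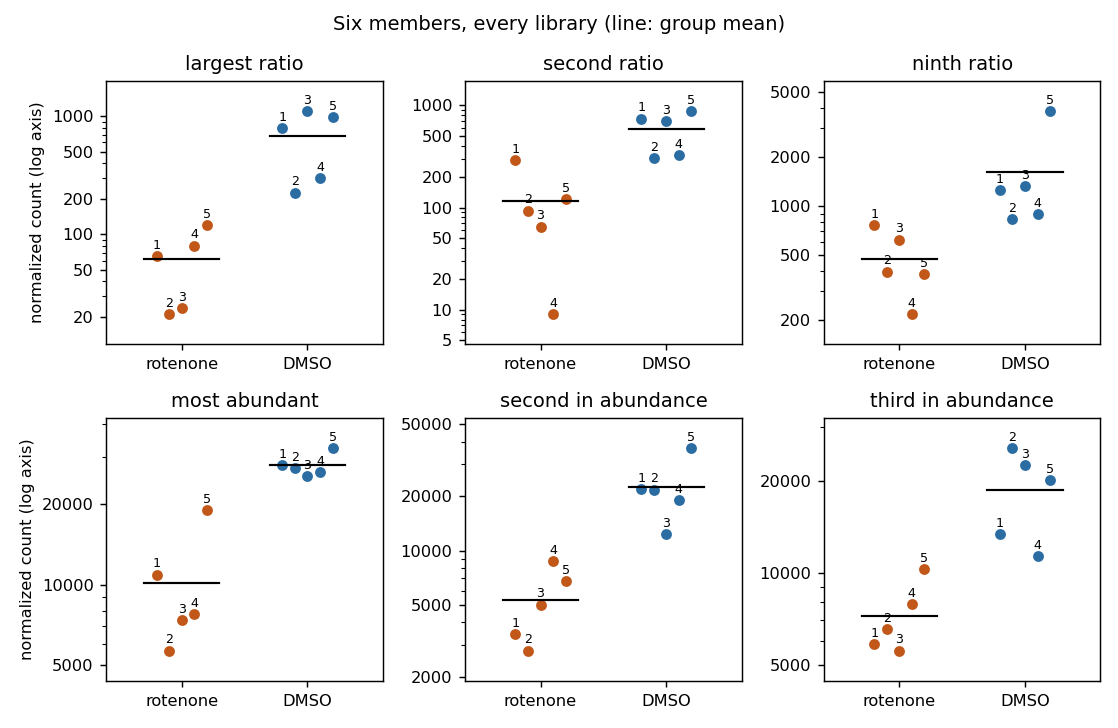
Normalized counts (log axis) of 6 members in the 5 rotenone and 5 DMSO libraries: the genes ranking first, second and ninth by ratio and the 3 most abundant. Points carry the replicate number and lines are group means. The most abundant member shows DMSO values within 1.27-fold, and the ninth by ratio shows DMSO replicate 5 at 3811.

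At the lower end of the ratio the groups lay close. The last member, with a ratio of 1.503, had 317, 213, 222, 305 and 263 normalized counts in rotenone, against 336, 448, 320, 395 and 487 in DMSO. Just outside the limit, non-overlapping genes had ratios of 1.497, 1.493 and 1.492. At the abundance limit the lowest member averaged 201 normalized counts, and otherwise fitting genes just below it 199, 196 and 196. The gap between the lowest DMSO and the highest rotenone value was as small as 1.001-fold for the closest member, while the nearest excluded gene stood at 0.999. The median gap was 1.09-fold (quartiles 1.04 and 1.18). It was under 1.1-fold in 63 members and at least 1.5-fold in 6. Without DMSO replicate 2 the median gap of the same members was 1.17-fold, with 37 under 1.1-fold and 14 at 1.5-fold or more. Under the same scaling, leaving out a control can only raise or keep the lowest DMSO value. The direction of this change thus follows largely by construction.

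Many genes missed membership through a single pair of libraries. Of the 876 genes with a ratio of at least 1.5, 762 had overlapping groups, and in 96 of these only 1 of the 25 pairs of a rotenone with a DMSO library was out of order. The rotenone library of that pair was replicate 3 in 40 genes, replicate 1 in 36, replicate 2 in 10, replicate 5 in 6 and replicate 4 in 4. The DMSO library was replicate 2 in 70 of the 96, replicate 3 in 13 and another replicate in the rest. DMSO replicate 2 was thus the control out of order in most near misses. Without it, 567 of 1098 such genes had overlapping groups, 178 of them through 1 of the 20 remaining pairs.

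Among the members, single libraries differed in how far they lay from the other group. Relative to the DMSO mean, the median member stood at −0.78, −1.01, −0.77, −1.05 and −0.89 on the log2 scale in rotenone replicates 1 to 5, and at −0.08, −0.30, −0.11, 0.24 and 0.27 in DMSO replicates 1 to 5. Over the 10090 genes past the abundance limits the same medians lay between −0.01 and 0.07 in rotenone and between −0.04 and 0.07 in DMSO. Rotenone replicate 3 was the highest rotenone library in 36 members and replicate 1 in 35, and in 18.2% and 17.8% of the 10090 genes. DMSO replicate 2 was the lowest DMSO library in 63 members, and it was so in 27.0% of the 10090 genes. DMSO replicate 5 was the lowest in 1 member, against 14.8% of the 10090 genes, and the highest in 49, against 15.9%. DMSO replicate 4 was the highest in 48 members and in 35.8% of the 10090 genes.

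**Figure D3:**
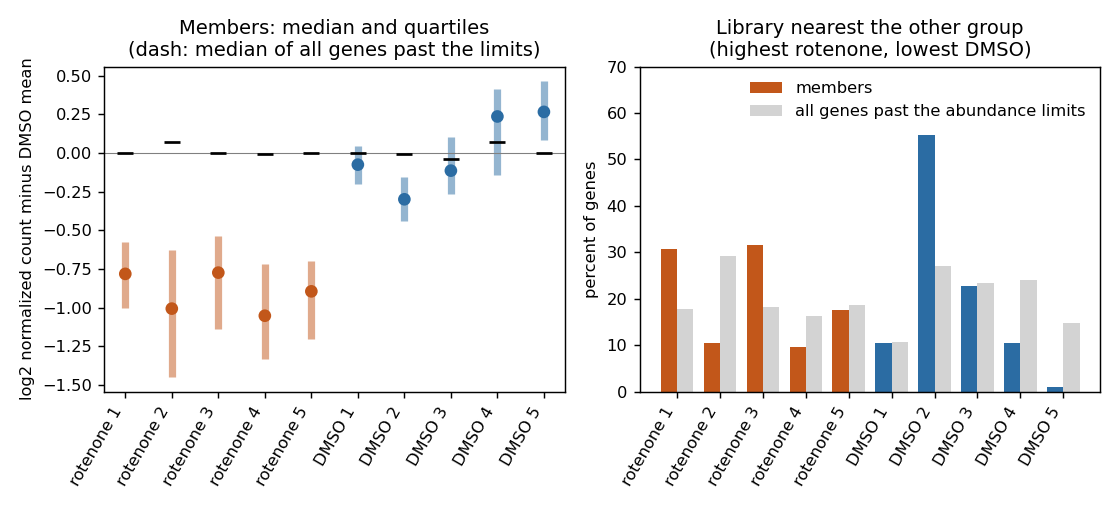
Left, median and quartiles over the 114 members of the log2 normalized count minus the DMSO mean, per library; dashes give the median over all 10090 genes past the abundance limits. Right, the percent of genes in which a rotenone library was the highest of its group or a DMSO library the lowest of its group, for members (coloured) and all genes past the limits (grey). DMSO replicate 2 was the lowest control in 63 members.

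The members took a small part of each library. They held 0.388, 0.329, 0.374, 0.266 and 0.311% of counts in rotenone replicates 1 to 5, against 0.766, 0.580, 0.801, 0.888 and 0.945% in DMSO replicates 1 to 5. No rotenone value reached the lowest DMSO value, which follows from the rule in scaled counts and here holds for shares of the total as well. The shares use the same counts, so this adds no support. Scaling by library totals alone also moved the median log2 fold change of all tested genes to −0.20. The means were 0.334 ± 0.0493% in rotenone and 0.796 ± 0.140% in DMSO (SD, n = 5 each). Without the 3 most abundant members the shares ran from 0.211 to 0.329% in rotenone and from 0.392 to 0.701% in DMSO.

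Each library was also left out in turn, the rule applied to the other 9, and the unused value placed in their order. The order of the other 9 is fixed by the rule, so that 5 of the 10 places a further library can take lie beyond the other group. That is 50% were every place equally likely, and a share near it does not show separation by the unused library. The genes of 1 library are not independent of each other, and the shares carry no test.

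The unused rotenone library lay below all 5 DMSO libraries in 112 of 130 selected genes (86.2%) for replicate 4 and in 117 of 140 (83.6%) for replicate 5. The count was 119 of 167 (71.3%) for rotenone replicate 2. It was 121 of 220 (55.0%) for rotenone replicate 1 and 116 of 195 (59.5%) for rotenone replicate 3, both close to 50%. Of the DMSO libraries, replicate 5 lay above all 5 rotenone libraries in 100 of 106 selected genes (94.3%), replicate 1 in 115 of 128 (89.8%) and replicate 3 in 114 of 151 (75.5%). DMSO replicate 4, with 103 of 185 genes (55.7%), was close to 50%, and DMSO replicate 2, with 123 of 531 (23.2%), was below it. Over all genes past the abundance limits, the unused rotenone library lay below every DMSO library in 14.24 to 24.77%. The unused DMSO library lay above every rotenone library in 15.91 to 30.05%. With the rule turned round, unused rotenone libraries lay above every DMSO library in 73.3 to 87.9% of selected genes. Unused DMSO libraries lay below every rotenone library in 52.6 to 95.1% of them. The separation by unused values thus differed from library to library.

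With the mean of the other DMSO libraries set to 0 and that of rotenone to 1, the median place of DMSO replicate 2 for its 531 genes was 0.928. It lay nearer to the rotenone mean in 438 of them (82.5%), and did so in 56.8% of all genes past the abundance limits. Over all such genes the share was 29.7, 34.4, 45.0 and 24.8% for DMSO replicates 1, 3, 4 and 5. For the rotenone libraries it ran from 52.8 to 70.4%. In the 397 genes that the rule turned round selected without DMSO replicate 2, its median place was 0.578. Of these, 56.7% lay nearer to the rotenone mean, and 209 (52.6%) lay below every rotenone library. Its place was thus closer to rotenone among the genes lower in rotenone than among those higher. For the genes lower in rotenone the other DMSO libraries lay at 0.157, 0.315, 0.477 and −0.324 in replicates 1, 3, 4 and 5, and the rotenone libraries at 0.50, 0.814, 0.564, 1.02 and 0.907 in replicates 1 to 5.

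The 531 genes selected without DMSO replicate 2 included 111 of the 114 members. Without rotenone replicate 1, rotenone replicate 3 or DMSO replicate 4 the rule selected 220, 195 and 185 genes, and 111, 109 and 96 of the members were among them. A group of 4 is easier to separate than one of 5, so such counts can rise by construction.

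**Figure D4:**
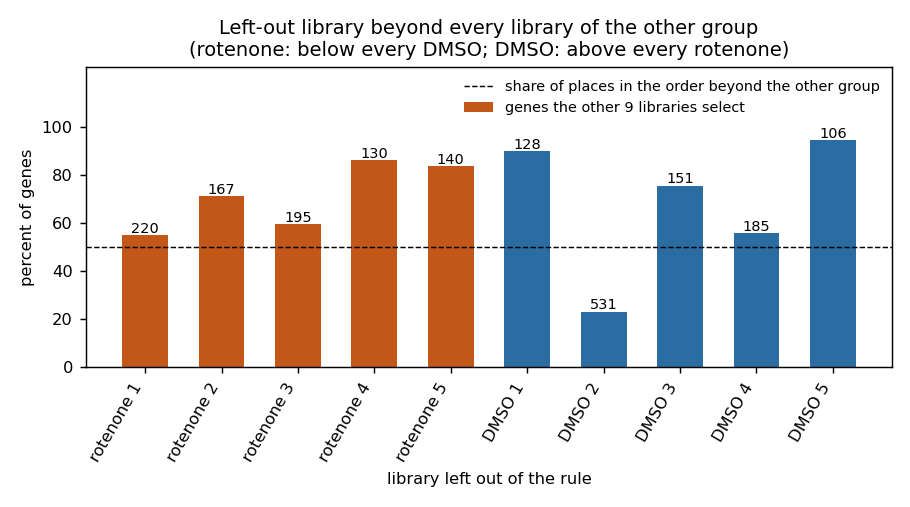
Each library was left out of the rule and then placed. Bars (orange for rotenone, blue for DMSO) give the percent of the genes selected by the other 9 libraries (their number above the bar) for which the left-out rotenone library lay below every DMSO library, or the left-out DMSO library above every rotenone library. The dashed line marks 50%, the share of the 10 places that lie beyond the other group; DMSO replicate 2, at 23.2%, is the only bar below it.

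The members also shared deviations within the groups. Deviations of the log2 normalized count from the group mean were correlated between pairs of members over the 10 libraries, as a description, since all pairs share the same libraries and scaling and the rule itself limits these deviations. The median Pearson r was 0.257 over 6441 pairs (quartiles −0.0279 and 0.507), against 0.00669 over all pairs of the 10090 genes. It was 0.146 among the 191 genes that were higher in every rotenone library. An r over 0.5 was found for 25.6% of the pairs of members and 13.4% of all pairs.

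Grouping the members by these deviations into 3 sets, a number chosen after the values were seen, gave sets of 84, 24 and 6. In the set of 84 the median deviations were 0.08, −0.05, 0.16, −0.06 and −0.05 in rotenone replicates 1 to 5, and −0.08, −0.30, −0.16, 0.33 and 0.22 in DMSO replicates 1 to 5 (log2). In the set of 24 rotenone replicate 4 was low (−0.35) and rotenone replicate 1 high (0.28), while DMSO replicates 2 and 4 were low (−0.34 and −0.33) and DMSO replicate 5 high (0.47). That set held 7 of the 10 members with the largest ratios, Nfu_g_1_009502 among them, and its median ratio was 1.98. The set of 84 held the other 3 and Nfu_g_1_006595, with a median ratio of 1.8. In the set of 6, DMSO replicate 2 was the highest control (0.41) and DMSO replicate 4 the lowest (−0.37). DMSO replicate 4 was high in the large set and low in both others. As the sets were formed on these deviations, such differences between them follow from the grouping and describe it only.

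**Figure D5:**
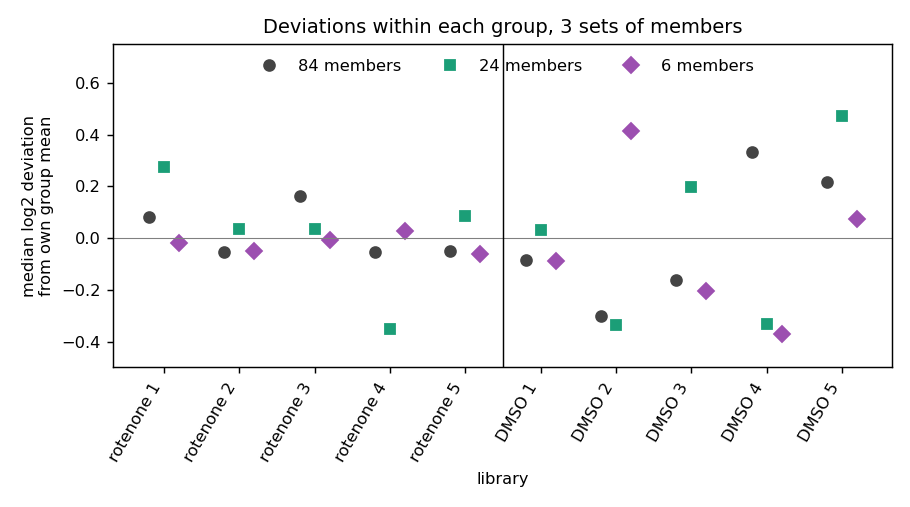
Median deviation of the log2 normalized count from the mean of the library's own group, for 3 sets of members (84, 24 and 6 genes) in the rotenone and DMSO libraries. The sets were formed on these deviations. DMSO replicate 2 lies at −0.30 and −0.34 in both larger sets and at 0.41 in the smallest.

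The median spread within the groups was somewhat above that of the 10090 genes. The rule limits the highest rotenone and the lowest DMSO value of each member, so this is a description only. The SD of the log2 normalized count had a median of 0.310 in rotenone and 0.339 in DMSO over the members, against 0.267 in rotenone and 0.298 in DMSO over the 10090 genes. Over the 191 genes selected with the direction turned round it was 0.278 in rotenone and 0.271 in DMSO. The coefficient of variation was higher in DMSO than in rotenone for 71 of the 114 members. The matching share over the 10090 genes was not computed, so 71 cannot be set against other genes. Their median SD of the log2 normalized count, another measure, was also higher in DMSO. The steadiest rotenone values belonged to the gene ranking 95 by ratio, with a coefficient of variation of 4.56% in rotenone and 39.7% in DMSO.

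Abundance and length ranged widely, with a somewhat higher median abundance and a shorter median length than over the 10090 genes. These differences were not tested. The members' mean had a median of 833 normalized counts, against 693 over the 10090 genes. From 200 to 500 normalized counts 33 of 3649 genes were members (0.904%), from 500 to 1000 it was 30 of 2781 (1.08%), from 1000 to 2000 it was 27 of 1879 (1.44%), from 2000 to 5000 it was 18 of 1179 (1.53%), and above that 6 of 602 (0.997%). Gene lengths, which the rule did not use, had a median of 2717 bp (quartiles 1504 and 5255), against 3163 bp (1692 and 5299) over the 10090 genes. Of the members, 50 (43.9%) were longer than the median of the 10090 genes. Members over 5000 bp numbered 30 (26.3%, against 27.6% of the 10090 genes), and members under 1000 bp numbered 14, while 12.4% of the 10090 genes were that short.

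The short members had the highest level per length. RPKM divides counts by length and all members passed the same count limit, so this follows at least in part by construction. The 14 genes under 1000 bp had a median of 26.7 RPKM in rotenone and 50.4 RPKM in DMSO, while the 30 over 5000 bp had 2.26 RPKM in rotenone and 5.25 RPKM in DMSO. The highest level per length belonged to a gene of 318 bp ranking 102 by ratio, with 327 ± 88.5 RPKM in rotenone and 576 ± 134 RPKM in DMSO (SD, n = 5 each). It was followed by a gene of 450 bp with 165 ± 45.1 RPKM in rotenone and 330 ± 87.5 RPKM in DMSO, and by a gene of 210 bp with 129 ± 28.5 RPKM in rotenone and 260 ± 64.6 RPKM in DMSO. The ratios of the 14 short members were smaller and in a narrower range, with a median of 1.6 (1.51 to 2.33), than those of the 70 members from 1000 to 5000 bp, at 1.93 (1.5 to 11.0). The 30 long members had a median of 1.92 (1.51 to 3.45). These differences between length classes were not tested.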

How the data were processed

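The members and tests were chosen with earlier results of these data known. Liver RNA of 10 samples was made into libraries with a TruSeq kit, per the labels' protocols. Tools named in the submitters' notes on processing are featureCounts 1.4.6-p4, STAR 2.4.1d and bcl2fastq 1.8.4. The genome build, annotation and strand setting are not stated there, and overlapping genes or near-identical copies may share reads. The authors deposited raw read counts per gene and RPKM. The deposited RPKM matched the counts with library totals recycled down the table (median coefficient of variation of the implied length 3.49e-05, against 0.153 with own totals, 7713 genes), so lengths were taken from that match and RPKM recomputed with own totals.

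Groups came from the labels. The test on counts was that of edgeR 4.0.16 under R 4.3.3 (quasi-likelihood, TMM, filterByExpr, Benjamini-Hochberg over 16922 genes), with DESeq2 1.42.0 and limma 3.58.1 as alternatives. The selection and the fits were run on simulated counts with planted changes. There genes varied independently and with the same relative spread beyond counting error. These libraries had shared deviations, so the simulation checked the code and not its performance on these data. Log2 normalized counts used a pseudocount of 0.5. Libraries within a group differed beyond counting error in all 20 pairs (lowest and highest chi-square per degree of freedom 73.3 and 440). Without gene names the planned gene lists and markers could not be used, and the rule for named genes gave 2 IDs: the largest ratio and the highest mean. Genes described by rank alone were chosen after their values were seen.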

Additional observations from a re-analysis of the deposited data

Results flagged for a closer look

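In 16 of 228 sets of 5 values (114 members in each group), the highest or lowest library was separated from the rest by more than 0.71 of the range (Dixon's ratio). For unselected values from a normal distribution chance marks about 1 set in 20, which is 11.4 of 228. The rule limits the highest rotenone and the lowest DMSO value of each member, so 11.4 is not an expectation for these sets.

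In rotenone, replicate 2 was low in the gene ranking 12 by ratio (0.805). Rotenone replicate 4 was low in the genes ranking 21 (0.748), 64 (0.753), 104 (0.796) and 107 (0.732). In DMSO, replicate 5 was high in the genes ranking 9 (0.832), 15 (0.824), 57 (0.764), 79 (0.792) and 81 (0.865). DMSO replicate 4 was high in the genes ranking 24 (0.750), 93 (0.838), 102 (0.801) and 110 (0.766), and low in the gene ranking 70 (0.865). DMSO replicate 2 was high in the gene ranking 31 (0.854). The members' share of counts and their median per library gave no such value.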

How the results depend on the processing

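The number of members was 114. It was 49 with a ratio of at least 2 and 199 with no minimum ratio, both by construction. The number stayed within 1.5 times of 114 in the other 6 settings of scaling and abundance, but not always with the same genes. With library size only it was 138, of which 58 were among the 114, and 66 with the direction turned round. With each library left out the number of members ran from 106 to 531. The members' median log2 fold change of −0.90 was −1.10 with library size only, a scaling that moved all genes by −0.20. In the other 8 settings it differed by less than the spread between libraries (SD 0.193). Among these, limma with own totals gave −1.09 on log2(RPKM + 0.1) and −0.93 on log2(RPKM + 1). On log2(RPKM + 1) of the deposited values limma gave −1.05. The median of all tested genes in these fits was, in the same order, −0.19, −0.12 and −0.20, so all genes moved in them as well. Only 10.0% of the deposited values were divided by the total of their own library, so that fit is not one on library totals. With each library left out the members' median ran from −0.95 to −0.82. At an adjusted p under 0.1 edgeR called 442 of 16922 genes lower and 486 higher. The count of 25 genes called lower by edgeR at 0.05 stayed within 1.5 times of 25 in 5 of 10 other settings. In edgeR it was 25 with DESeq2 size factors, 25 with upper-quartile scaling, 21 with library size only and 20 with no count filter. With limma on counts (voom) it was 20. It was 743 with DESeq2. With limma on RPKM it was 14 on log2(RPKM + 0.1) with own totals. It was 0 on log2(RPKM + 1) with own totals, where 2888 genes were lower and 567 higher at an unadjusted p under 0.05. It was 0 on the deposited values, with 3312 lower and 224 higher. In the main edgeR fit these were 1891 and 1886. The median of all tested genes lay below 0 in both limma fits, so their lower counts are not counts of genes lower beside the rest. The edgeR count of 25 ran from 0 to 572 with each library left out. The looser threshold raised the count by construction, while for the rest the cause was not tested. Non-overlapping genes, gaps and near misses without DMSO replicate 2 were computed after the data were seen. Their counts of 199, 63 and 96 became 778, 37 and 178. For the gaps the direction of the change follows largely by construction. No paired analysis was possible because replicate numbers follow accession order and pair no samples. Depth limits the 31 values under 100 reads most.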
